A study of Mus musculus with 6 samples.

Results

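The acyl-CoA thioesterases were followed through 10 genes, Acot1, Acot2, Acot3, Acot4, Acot7, Acot8, Acot9, Acot11, Acot12 and Acot13, which were taken by their symbols from the 25031 genes of the count table. Kidneys of mice given (+)CePPy held less Acot1 and Acot2 transcript than kidneys of mice given vehicle, with no overlap between the libraries of the groups. Such a gap, with CePPy lower, was found for 14.0% of the 15416 genes tested. Mean Acot1 was 29.6 ± 2.46 CPM in CePPy and 89.9 ± 28.3 CPM in vehicle kidneys (SD, n = 3 each), where CPM is a count scaled to library size. Acot11 was higher in 2 of the 3 CePPy libraries, and the other 7 genes differed by a log2 fold change between -0.22 and 0.32. All 10 genes passed the filter on low counts. The family was singled out with the CePPy and vehicle values of these libraries known, so the differences between the groups are a description of these libraries and no test was made over the family.

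The treated group comprised 3 kidney libraries from IRI-AKI mice, animals with acute kidney injury by ischemia and reperfusion, that received (+)CePPy at 5 mg/kg by vein directly after the injury. (+)CePPy is a positively charged polypyrrole nanoparticle doped with cerium. The vehicle group comprised 3 kidney libraries from IRI-AKI mice that received the same volume of saline. The mice behind all 6 libraries were C57BL/6 males of wild-type genotype, aged 7 to 8 weeks, and both kidneys had been ischemic for 23 minutes with core temperature held at 37 °C, so the vehicle kidneys carry the same injury. How long after reperfusion the kidneys were taken is not stated in the sources used here, uninjured kidneys were not analysed here, and nothing states that each library came from its own animal, so p-values measure the spread of these 6 libraries alone, whatever its source. Counts of libraries of the same group differed by far more than counting error, the chi-square over its degrees of freedom being 19.7 to 106 for each pair.

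An acyl-CoA thioesterase cuts the bond between a fatty acid and coenzyme A, which gives back a free fatty acid and free coenzyme A. The reaction opposes that of the acyl-CoA synthetases and sets how much activated fatty acid is on hand in the cytosol, the mitochondria and the peroxisomes, each of which has its own thioesterases. The proximal tubule of the kidney burns fatty acids as its main fuel, and a fall of that oxidation is a known feature of ischemic tubular injury. Several of these genes, Acot1 and Acot2 among them, are known targets of the fatty acid receptor PPARα in mouse liver and heart.

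Library totals lay between 29762157 and 37415213 counts, and 1 count equalled 0.0266 to 0.0333 CPM, with library sizes scaled by the TMM method. All 20 proximal tubule marker genes were detected, as the kidney label requires. On the axis that held 38.5% of the variance of log2 CPM, CePPy 1, 2 and 3 lay at -56.8, -3.85 and -16.0 and the vehicle libraries at 29.8, 18.1 and 28.7, so CePPy 1 stood apart from the other libraries and CePPy 2 lay nearest to vehicle. Over all 15416 genes tested, edgeR called 1 gene at an adjusted p under 0.05 (0.00649% of the genes), while DESeq2 called 993 of 15049 (6.60%), so calls depended on the tool.

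Acot1 and Acot2 are neighbours that share most of their coding sequence and differ at its start, where Acot2 carries a leader that takes the enzyme into mitochondria while Acot1 stays in the cytosol. The coding starts are shown because they are what tells the enzymes of this pair apart. Both are on the plus strand of chromosome 12 of GRCm38, from GENCODE M21 transcripts. The Acot2 stretch is chr12:83987902-83988084 and covers coding bases 1 to 183, with the 123 bases that have no counterpart in Acot1 in capitals, and the Acot1 stretch is chr12:84009510-84009569 and covers coding bases 1 to 60.
Acot2: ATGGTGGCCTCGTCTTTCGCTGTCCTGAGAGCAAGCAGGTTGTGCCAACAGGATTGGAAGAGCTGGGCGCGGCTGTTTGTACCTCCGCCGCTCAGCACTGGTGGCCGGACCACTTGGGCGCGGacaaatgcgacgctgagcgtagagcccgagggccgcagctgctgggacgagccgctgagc
Acot1: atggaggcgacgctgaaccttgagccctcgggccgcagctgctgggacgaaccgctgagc

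After the leader, 1180 of 1239 aligned coding bases of Acot1 and Acot2 were identical (95.2%). This matters for the counts: of the 2173 windows of 100 bases in the Acot1 transcript, 359 (16.5%) occurred unchanged in Acot2, and of the 2097 windows in Acot2 17.1% occurred in Acot1. With windows of 50 bases the shares were 23.7% and 24.5%, and with windows of 150 bases 9.84% and 10.2%. Neither the read length nor the treatment of reads that fit several places is given by the sources at hand, so part of the reads of each gene may have been counted for the other. Acot9 is the other member with a close copy, the intronless Acot10, which matched it at 97.2% of coding bases. Of the 1703 windows of 50 bases in Acot9, 344 (20.2%) occurred unchanged in Acot10. Of the 1653 windows of 100 bases, 16 (0.968%) did, so the overlap depends on the read length. Acot3 and Acot4 shared 104 and 9 windows with Acot1, and Acot7 and Acot13 shared no window of 100 bases with any other annotated gene.

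The stretches before the genes are shown for Acot1 and Acot2, which were lower together, and for Acot4, which lies next to them and was not. They run from 250 bases before to 50 bases after each start (RefSeq, GRCm38.p6, plus strand) and cover chr12:84009252-84009551 for Acot1, chr12:83987611-83987910 for Acot2 and chr12:84038129-84038428 for Acot4. Capitals mark a match, here on the opposite strand, to a loose form of the DR1 element to which PPARα and its partner RXR bind, spelled NGGNCA, any base, then AGGNCA and searched on both strands like the other motifs.
Acot1: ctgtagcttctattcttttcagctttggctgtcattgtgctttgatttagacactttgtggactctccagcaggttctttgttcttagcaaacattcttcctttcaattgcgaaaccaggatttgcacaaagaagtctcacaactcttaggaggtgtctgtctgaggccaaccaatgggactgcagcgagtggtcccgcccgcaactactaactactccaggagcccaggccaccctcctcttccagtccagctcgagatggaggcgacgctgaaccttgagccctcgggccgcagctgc
Acot2: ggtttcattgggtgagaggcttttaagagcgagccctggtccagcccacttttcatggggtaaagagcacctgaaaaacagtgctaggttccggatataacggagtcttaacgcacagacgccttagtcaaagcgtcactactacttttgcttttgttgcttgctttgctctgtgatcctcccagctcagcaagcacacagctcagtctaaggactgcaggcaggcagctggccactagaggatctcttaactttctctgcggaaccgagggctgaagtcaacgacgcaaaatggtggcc
Acot4: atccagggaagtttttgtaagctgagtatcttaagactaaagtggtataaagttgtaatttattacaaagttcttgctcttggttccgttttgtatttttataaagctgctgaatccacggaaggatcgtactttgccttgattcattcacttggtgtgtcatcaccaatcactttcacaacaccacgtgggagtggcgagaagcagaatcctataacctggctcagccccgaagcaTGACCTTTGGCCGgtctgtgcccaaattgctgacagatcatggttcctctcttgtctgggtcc

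Unlike their coding bases, the windows before Acot1 and Acot2 aligned at 53.9% of bases, which lies within the 51.6% to 61.7% found between the Acot1 window and the windows of the other Acot genes. Of 14 Acot windows, from 11 of the 13 Acot genes in the table, 1 held the loose DR1 letters, that of Acot4, and they were found in 0.798% of all 32851 windows. The strict form, AGGTCA, any base, then AGGTCA again, which the loose form includes, was in none of the 14 and in 0.0396% of all windows. AGGTCA alone, part of the strict form, was in 6 of the 14, those of Acot3, Acot4, Acot5 and Acot12, and in 16.3% of all windows. TGACNNNGC, the core of the element bound by NRF2, was in 2 of the 14, both of Acot3, and in 12.4% of all windows. The windows of Acot3 start at 84051894 and 84051901, and those of Acot5 at 84069074 and 84069075. Their matches are therefore the same sites, counted for each window. These are matches of letters in a short window and say nothing of which factors bind.

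Levels between genes were compared per length, as CPM divided by the kilobases of exon. In CePPy kidneys Acot13 was highest, at 112 ± 20.8, ahead of Acot9 at 36.4 ± 6.16 and Acot12 at 29.7 ± 4.27 (SD, n = 3). The same 3 genes led in vehicle kidneys, at 102 ± 7.36 for Acot13, 42.4 ± 4.13 for Acot9 and 29.6 ± 4.77 for Acot12. Acot1 had rank 8 of the 13 Acot genes in CePPy kidneys, at 7.55 ± 0.628 CPM per kilobase, and rank 4 in vehicle kidneys, at 22.9 ± 7.22. Acot2 had rank 5 in both groups, at 9.38 ± 0.836 in CePPy and 19.7 ± 5.09 in vehicle kidneys. The length used covers all annotated exons of a gene, which is 3919 bases for Acot1, while its transcript compared above has 2272. For Acot2 both are 2196 bases, so the order of Acot1 and Acot2 depends on the length chosen. Many neighbours in the order could not be told apart, since the ranges over libraries overlapped for Acot9 and Acot12, and for each step from Acot2 through Acot8, Acot4 and Acot1 to Acot11, in CePPy kidneys. In vehicle kidneys they overlapped for each step from Acot12 through Acot1 and Acot2 to Acot7. Acot3 lay at 2.72 ± 0.685 in CePPy and 2.18 ± 0.508 in vehicle kidneys, the lowest of the 10 in each group.

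**Figure D1:**
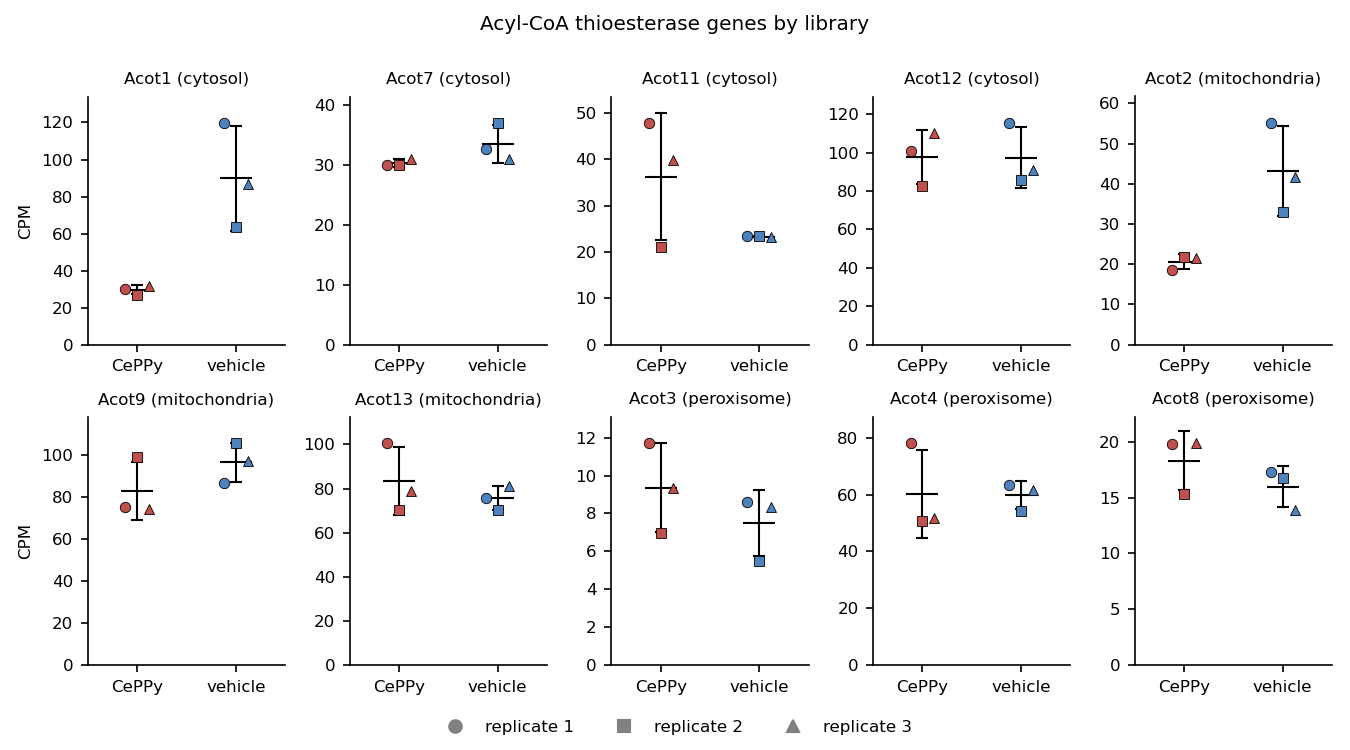
CPM of the 10 thioesterase genes in each library, with CePPy left of vehicle, symbols for replicate numbers and a black bar with whiskers for the mean ± SD of 3 libraries; all vertical axes start at 0. The CePPy points of Acot1 (26.9 to 31.8 CPM) and Acot2 (18.5 to 21.7 CPM) lie below all vehicle points, while those of the other 8 genes overlap vehicle.

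Among the cytosolic enzymes, Acot1 (chromosome 12, 84009490 to 84018371, plus strand), which acts on long-chain acyl-CoA, showed the widest difference. It measured 29.99, 26.9 and 31.8 CPM in CePPy 1, 2 and 3, against 119.7, 63.3 and 86.7 CPM in vehicle 1, 2 and 3, from 954 to 1066 counts in CePPy and 2152 to 4298 counts in vehicle libraries. The groups did not overlap, the CePPy libraries lay close together, and vehicle 1 was the highest library. Means were 29.6 ± 2.46 CPM in CePPy and 89.9 ± 28.3 CPM in vehicle kidneys (SD, n = 3 each), a log2 fold change of -1.60 (SE 0.21). CePPy 2, the CePPy library nearest to vehicle over all genes, had the lowest Acot1 level of the 6.

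Acot7, a cytosolic thioesterase best known from brain and macrophages (chromosome 4, 152178134 to 152271855, plus strand), measured 29.96, 29.9 and 31.0 CPM in CePPy and 32.7, 37.0 and 30.9 CPM in vehicle kidneys, a log2 fold change of -0.15 (SE 0.09). The groups overlapped through vehicle 3. Acot12, which cuts acetyl-CoA (chromosome 13, 91741512 to 91786148, plus strand), measured 100.7, 82.4 and 110.0 CPM in CePPy and 115.3, 85.9 and 91.0 CPM in vehicle kidneys. Its groups overlapped throughout, with means of 97.7 ± 14.1 CPM in CePPy and 97.4 ± 15.7 CPM in vehicle kidneys and a log2 fold change of 0.00 (SE 0.14).

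Acot11, the thioesterase of brown fat also known as Them1 (chromosome 4, 106744555 to 106804998, minus strand), measured 47.8, 21.1 and 39.8 CPM in CePPy 1, 2 and 3, against 23.4, 23.4 and 23.1 CPM in vehicle kidneys. CePPy 1 and CePPy 3 lay above all vehicle libraries and CePPy 2 below all of them. The log2 fold change was 0.64 (SE 0.26) and became 0.39 without CePPy 1 and 0.91 without CePPy 2. Its last exons overlap Fam151a on the opposite strand over 1263 bases, which is 20.9% of the exonic length of Acot11, so without strand information reads of this stretch could belong to either gene. Fam151a measured 91.6, 26.1 and 25.9 CPM in CePPy and 13.8, 18.2 and 20.7 CPM in vehicle kidneys, and its part in the Acot11 values was not tested.

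Of the mitochondrial enzymes, Acot2 (chromosome 12, 83987861 to 83993873, plus strand), which hydrolyses long-chain acyl-CoA in the matrix, was lower in the same way as Acot1. It measured 18.5, 21.7 and 21.6 CPM in CePPy 1, 2 and 3, against 55.1, 32.9 and 41.7 CPM in vehicle 1, 2 and 3. The groups did not overlap, and vehicle 1 again stood highest and vehicle 2 nearest to CePPy. Means were 20.6 ± 1.84 CPM in CePPy and 43.2 ± 11.2 CPM in vehicle kidneys (SD, n = 3 each), a log2 fold change of -1.07 (SE 0.18). Counts of Acot1 were 1.62, 1.24 and 1.47 times those of Acot2 in CePPy libraries and 2.17, 1.93 and 2.08 times in vehicle libraries, so the ratio was lower in CePPy in each library as well.

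Acot9, a mitochondrial enzyme of branched and short acyl-CoA (chromosome X, 155262443 to 155297654, plus strand), measured 75.4, 99.0 and 74.1 CPM in CePPy and 86.7, 105.5 and 97.1 CPM in vehicle kidneys, a log2 fold change of -0.22 (SE 0.13). CePPy 2 lay among the vehicle libraries and the other 2 below them. Acot13, the small mitochondria-associated thioesterase Them2 (chromosome 13, 24817948 to 24831540, minus strand), measured 100.5, 70.5 and 78.9 CPM in CePPy and 75.7, 70.1 and 81.04 CPM in vehicle kidneys. CePPy 1 alone exceeded vehicle, the log2 fold change was 0.14 (SE 0.13), and without CePPy 1 it was -0.02.

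The 3 peroxisomal members overlapped between the groups. Acot4, which cuts succinyl-CoA and other dicarboxylyl-CoA (chromosome 12, 84038379 to 84048601, plus strand), measured 78.1, 50.8 and 51.7 CPM in CePPy and 63.4, 54.3 and 61.8 CPM in vehicle kidneys. CePPy 1 was the highest library and CePPy 2 the lowest, and the log2 fold change of 0.01 (SE 0.17) became -0.22 without CePPy 1. Acot3, a long-chain enzyme (chromosome 12, 84052144 to 84060402, plus strand), measured 11.7, 6.99 and 9.37 CPM in CePPy and 8.63, 5.47 and 8.35 CPM in vehicle kidneys, a log2 fold change of 0.32 (SE 0.24). Acot8, which also accepts bile acid CoA esters (chromosome 2, 164792765 to 164804882, minus strand), measured 19.8, 15.3 and 19.9 CPM in CePPy and 17.3, 16.8 and 13.9 CPM in vehicle kidneys, a log2 fold change of 0.20 (SE 0.14). For Acot3 and Acot8 alike, CePPy 1 and CePPy 3 lay above the vehicle libraries and CePPy 2 among them. Exons of Acot8 overlap Snx21 on the opposite strand over 246 bases, and those of Acot4 and Acot3 overlap the antisense gene 4732463B04Rik over 615 and 312 bases, so their reads carry the same uncertainty, although the antisense gene has no row in the counts used here. Gm49366, on the same strand, overlaps Acot3 over 396 bases, 11.5% of its exonic length, and Acot4 over 33, which strand would not resolve, and it did not pass the filter on low counts.

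**Figure D2:**
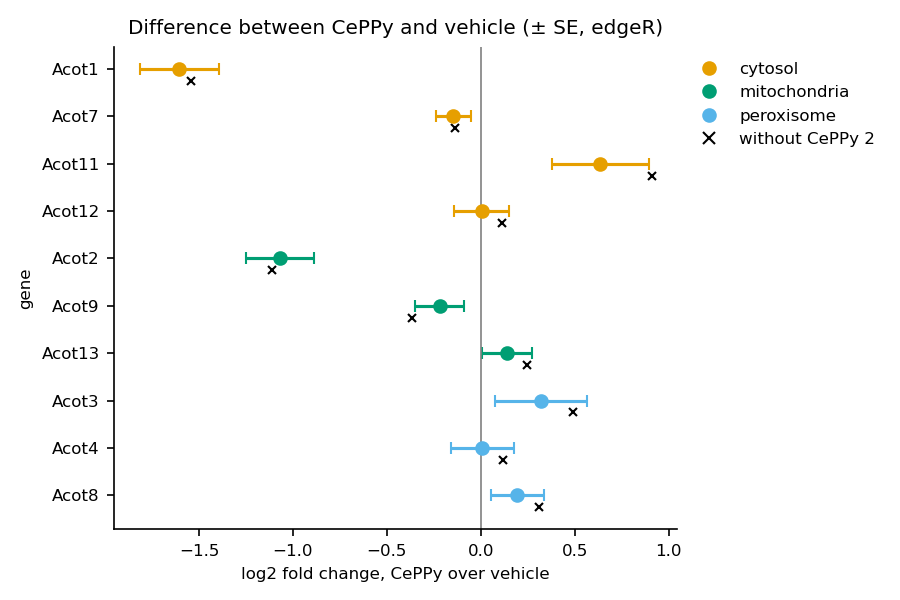
Log2 fold change of CePPy over vehicle for the 10 genes, grouped by compartment in colour, with whiskers of 1 SE derived from the edgeR test and crosses for the same value without CePPy 2. Acot1 at -1.60 and Acot2 at -1.07 lie furthest below 0, and Acot11 moves from 0.64 to 0.91 without CePPy 2.

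Read against all genes, edgeR called 0 of the 10 members higher and 0 lower, beside 0% and 0.00649% of the 15416 genes tested. A log2 fold change under -1 was found for 2 of the 10, Acot1 and Acot2, and for 1.31% of all genes, and one over 1 for 0 members and 3.06% of all genes. The libraries of the groups did not overlap, with CePPy lower, for the same 2 members and for 14.0% of all genes, with CePPy higher for 0 members and 12.3% of all genes, and in either direction for 26.3% of all genes. DESeq2 called Acot1 and Acot2 lower and 0 members higher, beside 3.20% lower and 3.40% higher of its genes. Without CePPy 2, edgeR called Acot1 and Acot2 lower and Acot11 higher, beside 2.19% lower, 2.98% higher and 5.17% in all of its genes, and without vehicle 2 it called Acot1 alone, lower, beside 0.0254% of its genes called lower. Since these values chose the family, nothing is read from the counts. The median log2 fold change was 0.01 over the 10 members and 0.00 over all genes. In whole kidney RNA, fewer cells of a type and less transcript per cell cannot be told apart.

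Acot1 to Acot6 lie side by side on chromosome 12 between 83987861 and 84111349, within 123 kb. The 2 genes of the cluster outside the 10 are Acot5 and Acot6, both peroxisomal in the mouse. Acot5 was hardly expressed, with 0, 6 and 2 counts in CePPy and 31, 21 and 25 counts in vehicle libraries, and also had no overlap between the groups. Its fitted log2 fold change of -3.21 (SE 0.78) rests on few counts, was -2.63 without CePPy 1 and -4.42 without CePPy 2, and edgeR called it in that last fit alone of those that leave out a library. Of its 1419 windows of 100 bases, 104 (7.33%) occurred in Acot3, 73 (5.14%) in Acot1 and 60 (4.23%) in Acot6. Some of these few reads may be from these copies. Acot6 measured 415, 564 and 333 counts in CePPy and 671, 446 and 516 counts in vehicle libraries, a log2 fold change of -0.32 (SE 0.17). In all 6 genes of the cluster the vehicle libraries had the same order in CPM, with vehicle 1 highest, vehicle 3 next and vehicle 2 lowest.

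The low values of Acot1 and Acot2 were not shared by all genes of the cluster or by its neighbours. Acot4 and Acot3 lie between Acot1 and Acot5 and had log2 fold changes of 0.01 and 0.32. The 7 other genes tested within 200 kb of the cluster lay between -0.14 and 0.48, the lowest being Riox1 and the highest Dnal1. Summed over Acot1 to Acot6, levels were 149.99, 122 and 126 CPM in CePPy and 266, 170 and 215 CPM in vehicle libraries. A split of reads among these copies leaves the sum unchanged. Dropping or repeated counting of reads that fit several places would change it, and their treatment is not given. The sums did not overlap either, with a log2 fold change of -0.71 (SE 0.17).

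**Figure D3:**
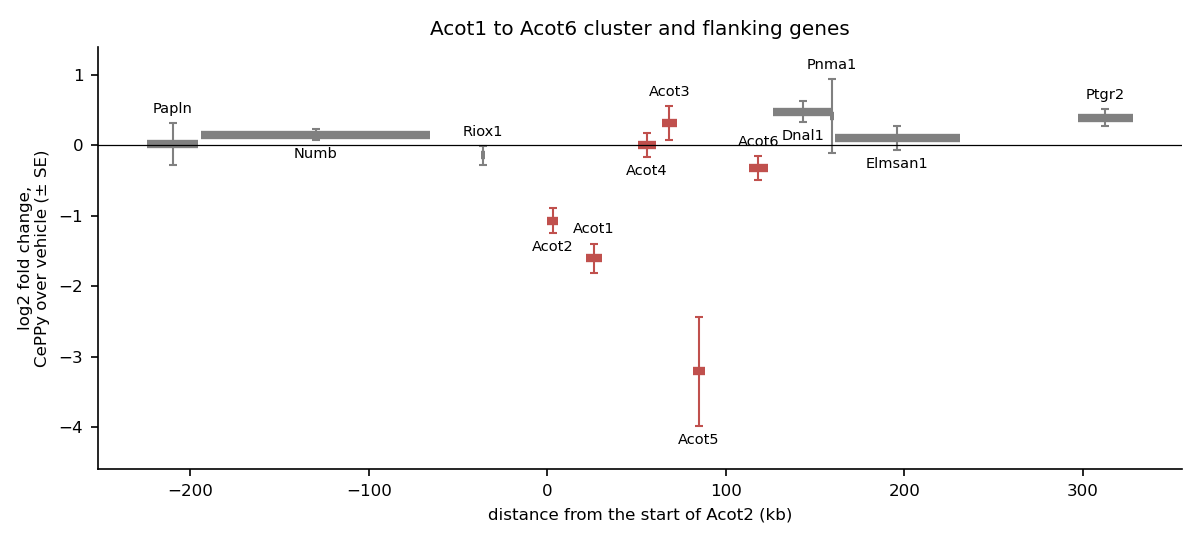
Log2 fold change of CePPy over vehicle (± 1 SE) for the genes tested in and around the Acot1 to Acot6 cluster, against distance in kb from the start of Acot2; horizontal bars span each gene, with Acot genes in red and others in grey. Acot2, Acot1 and Acot5 lie at -1.07, -1.60 and -3.21, while Acot4, Acot3 and the flanking genes lie near or above 0.

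By compartment, the 4 cytosolic genes together measured 60.2, 49.5 and 62.7 CPM per kilobase in CePPy and 84.8, 63.5 and 68.1 in vehicle kidneys. All CePPy sums lay below all vehicle sums, the closest being CePPy 3 and vehicle 2. Means were 57.5 ± 7.05 in CePPy and 72.1 ± 11.2 in vehicle kidneys (SD, n = 3 each). Of the 4 genes, Acot1 averaged 7.55 in CePPy and 22.9 in vehicle kidneys. Acot7 averaged 14.3 and 15.8, Acot12 29.7 and 29.6, and Acot11 5.98 and 3.85, so the sum was lower mainly through Acot1. The 4 mitochondrial genes summed to 158 ± 16.4 in CePPy and 164 ± 7.58 in vehicle kidneys. Acot2 averaged 9.38 in CePPy and 19.7 in vehicle kidneys, Acot9 36.4 and 42.4, and the abundant Acot13 112 and 102. The 5 peroxisomal genes summed to 22.9 ± 3.61 in CePPy and 22.1 ± 1.85 in vehicle kidneys. Mitochondrial genes held 63.6% to 68.2% of the family total in CePPy and 60.3% to 65.6% in vehicle kidneys.

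**Figure D4:**
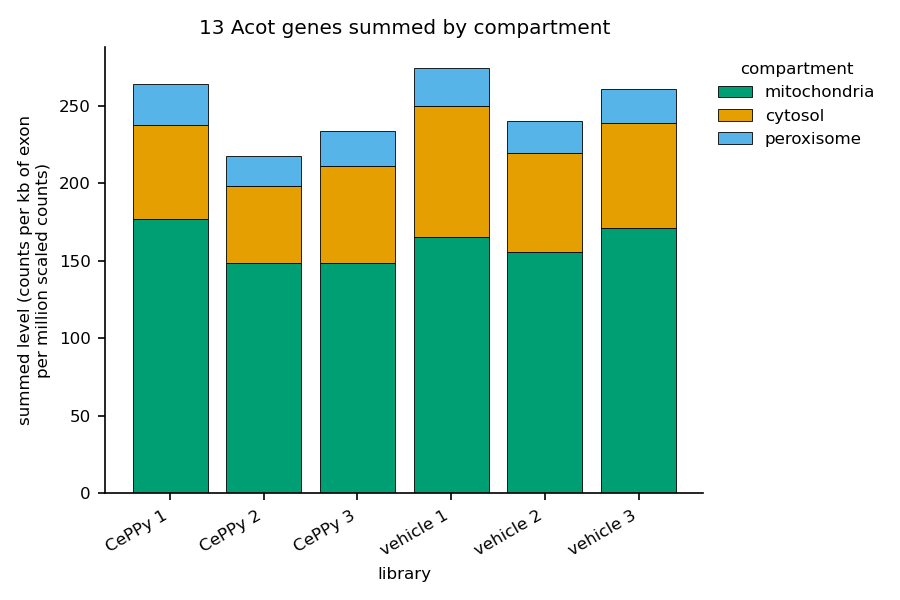
Stacked bars of the summed level of all 13 Acot genes by compartment in each library, in CPM per kilobase of exon, with CePPy libraries on the left. The cytosolic part is 49.5 to 62.7 in CePPy and 63.5 to 84.8 in vehicle libraries, and the peroxisomal part is the smallest in each library.

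The genes whose levels over the 6 libraries lay nearest to those of Acot1 were found by the root mean square difference in log2 CPM after each gene was centred on its vehicle mean, among 12897 annotated genes of at least 1 CPM. The nearest was Gsta4, a glutathione transferase that clears products of lipid peroxidation, at a difference of 0.20. It measured 27.0, 37.2 and 31.2 CPM in CePPy and 113.8, 65.3 and 93.3 CPM in vehicle kidneys. Ctxn3 followed at 0.31, Slitrk4 at 0.32, the chemokine receptor gene Ccr1 at 0.37 and the cystine importer gene Slc7a11 at 0.38. Acot2 had rank 8 at 0.39, while no other member came nearer than 1.02, the value of Acot9. All of these were chosen for their likeness, which includes the difference between the groups.

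The other genes of acyl-CoA metabolism were examined in 7 lists, and edgeR called 0 of their 105 tested genes in either direction. Acyl-CoA synthetases, the enzymes that load fatty acids onto coenzyme A, had 14 of 19 tested genes higher in CePPy and 5 lower, with a median log2 fold change of 0.21 beside 0.00 over all genes. DESeq2 called 2 of them higher and 1 lower. Averaged over this list and set to the vehicle mean, log2 levels were 0.45, 0.07 and 0.22 in CePPy 1, 2 and 3. CePPy 2 lay among the vehicle libraries, which were at 0.07, -0.18 and 0.11. The cytosolic acetyl-CoA synthetase gene Acss2 measured 188, 112 and 163 CPM in CePPy and 85.5, 93.1 and 75.5 CPM in vehicle kidneys (log2 fold change 0.86, SE 0.18, edgeR adjusted p = 0.102). The groups did not overlap. Acsm3, a medium-chain synthetase, had a log2 fold change of 1.22 (SE 0.31) and Acsbg1, of the bubblegum branch, -0.74 (SE 0.16). Acss3, a mitochondrial synthetase, averaged 10.9 ± 3.70 CPM in CePPy and 5.44 ± 1.37 CPM in vehicle kidneys (SD, n = 3 each).

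Mitochondrial β-oxidation was split, with 11 of 19 genes higher and 8 lower and a median log2 fold change of 0.05, and DESeq2 called 0 higher and 1 lower. Cpt1a, which admits long-chain acyl groups to mitochondria as carnitine esters, measured 311, 276 and 327 CPM in CePPy and 458, 342 and 444 CPM in vehicle kidneys (log2 fold change -0.45, SE 0.13, edgeR adjusted p = 0.149). Slc25a20, the carnitine carrier of the inner membrane, had a log2 fold change of -0.34 (SE 0.13). The groups did not overlap for either gene. Acadm, the medium-chain dehydrogenase gene, lay the other way at 0.48 (SE 0.18), and Cpt1b, the muscle form, at 0.91 (SE 0.34). Peroxisomal oxidation had 16 of 19 genes higher and 3 lower, a median of 0.19 and 2 genes called higher by DESeq2. Its lowest p-values belonged to the branched-chain oxidase gene Acox3 (log2 fold change 0.86, SE 0.20, edgeR adjusted p = 0.116) and the racemase gene Amacr (0.82, SE 0.27), followed by Scp2 (0.37, SE 0.16) and Ehhadh (0.55, SE 0.25). Log2 levels averaged over the peroxisomal list and set to the vehicle mean were 0.44, -0.045 and 0.33 in CePPy 1, 2 and 3. CePPy 2 thus lay among the vehicle libraries, and the groups did not overlap for 3 of the 19 genes.

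Among receptors and partners of the PPAR family, 4 of 8 were higher and 4 lower, with a median log2 fold change of 0.03. Ppara itself measured 11.5, 16.5 and 16.5 CPM in CePPy and 10.9, 11.4 and 15.9 CPM in vehicle kidneys, with overlapping groups (log2 fold change 0.22, SE 0.20). Ppargc1a, the coactivator PGC-1α, measured 42.6, 32.4 and 44.3 CPM in CePPy and 23.2, 27.7 and 30.3 CPM in vehicle kidneys, without overlap (0.55, SE 0.15, edgeR adjusted p = 0.131). Pparg (0.37, SE 0.37) and Rxrg (-0.99, SE 0.71) overlapped.

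Of known PPARα targets outside β-oxidation, 10 of 16 were higher and 6 lower, with a median log2 fold change of 0.17, and DESeq2 called 2 of them higher and 1 lower. Cyp4a14, a fatty acid hydroxylase, measured 438, 395 and 310 CPM in CePPy and 213, 254 and 150 CPM in vehicle kidneys (0.89, SE 0.20, edgeR adjusted p = 0.112). Plin2, which coats lipid droplets, measured 179.5, 326 and 313 CPM in CePPy and 508, 447 and 478 CPM in vehicle kidneys (-0.81, SE 0.21, edgeR adjusted p = 0.126). Neither overlapped. Cyp4a10 (0.64, SE 0.20) and Cyp4a32 (1.01, SE 0.33) were higher too, and reads of Cyp4a genes may be shared among their close copies. Log2 levels were averaged over the list and set to the vehicle mean. They were 0.01, -0.00 and 0.40 for CePPy 1, 2 and 3 and 0.52, -0.36 and -0.16 for vehicle 1, 2 and 3. The average weighs all genes alike, some of them under 1 CPM. Vehicle 1 was the highest vehicle library here, as for Acot1 and Acot2. It was also the highest for mitochondrial β-oxidation (0.10), peroxisomal oxidation (0.13) and coenzyme A synthesis and breakdown (0.10). Vehicle 3 was the highest for acyl-CoA synthetases (0.11), PPAR receptors and partners (0.17) and the thioesterases outside the 10 members (0.05). For Cyp4a14 vehicle 2 was the highest.

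The synthesis and breakdown of coenzyme A had 9 of 13 genes higher and 4 lower, with a median log2 fold change of 0.17 and 3 called higher by DESeq2. Log2 levels averaged over these genes were 0.40, 0.01 and 0.27 in CePPy 1, 2 and 3, with CePPy 2 among the vehicle libraries. Nudt19, a peroxisomal hydrolase of coenzyme A known from mouse kidney, measured 580.4, 309.9 and 516 CPM in CePPy and 247, 249 and 227 CPM in vehicle kidneys, without overlap (0.96, SE 0.21, edgeR adjusted p = 0.107). The coenzyme A carrier gene Slc25a42 (0.77, SE 0.24), Slc25a16 (0.35, SE 0.11) and the pantothenate kinase gene Pank1 (0.69, SE 0.22) were higher as well. Of 11 thioesterase genes tested outside the 10 members, 5 were higher and 6 lower, with a median of -0.08. Beside Acot5, the lowest p-values belonged to the protein depalmitoylase gene Lypla1 (0.55, SE 0.18), the bile acid conjugating enzyme gene Baat (1.17, SE 0.40) and Lypla2 (-0.24, SE 0.09).

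Marker lists had median log2 fold changes of 0.81 for the proximal tubule, 1.03 for the thick ascending limb, -0.71 for tubular injury and -1.21 for neutrophils, although edgeR called 0 genes of any marker list. All 20 proximal tubule markers were higher, with sums of 17197 to 33800 CPM in CePPy and 15890 to 17448 CPM in vehicle kidneys, and their mean log2 level stood 1.37, 0.21 and 0.82 above that of vehicle in CePPy 1, 2 and 3. Acot11 had the same order over the CePPy libraries, at 1.04, -0.14 and 0.77, while Acot1, at -1.53, -1.69 and -1.45, was as low in CePPy 2 as in CePPy 1. All 8 thick ascending limb markers were higher, with sums of 3579 to 6595 CPM in CePPy and 2775 to 3097 CPM in vehicle kidneys. Most of these sums was Umod, at 3199 to 5406 CPM in CePPy and 2486 to 2810 CPM in vehicle kidneys. The 5 distal tubule and 9 collecting duct markers were all higher too, with median log2 fold changes of 0.39 and 0.43. Of 8 tubular injury markers 7 were lower, with sums of 17358 to 33480 CPM in CePPy and 30768 to 31628 CPM in vehicle kidneys. Most of these sums was Spp1, at 14477 to 26822 CPM in CePPy and 23075 to 24114 CPM in vehicle kidneys. Its groups overlapped (log2 fold change -0.19, SE 0.23), while 6 of the 8 markers did not overlap, with CePPy lower, beside 14.0% of all genes. All 6 neutrophil markers were lower, with sums of 9.96 to 23.3 CPM in CePPy and 34.0 to 50.7 CPM in vehicle kidneys. The part of these shifts in the thioesterase values was not tested.

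Fat and adrenal tissue lie against the kidney, and their markers were low. The 7 adipocyte markers summed to 0.253, 5.74 and 11.5 CPM in CePPy and 3.45, 1.77 and 0.0594 CPM in vehicle kidneys, with Lep at 0 in all 6 libraries. The 5 adrenal cortex markers summed to 3.24 to 4.92 CPM in CePPy and 4.49 to 5.85 CPM in vehicle kidneys, nearly all of it Star, with Cyp11b2 and Cyp21a1 at 0 throughout. The 8 macrophage markers summed to 151 to 175 CPM in CePPy and 157 to 186 CPM in vehicle kidneys, and the median log2 fold change was -0.06 for macrophage, -0.09 for podocyte and 0.04 for endothelial markers. The part of these cells in the thioesterase values was not tested.

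**Figure D5:**
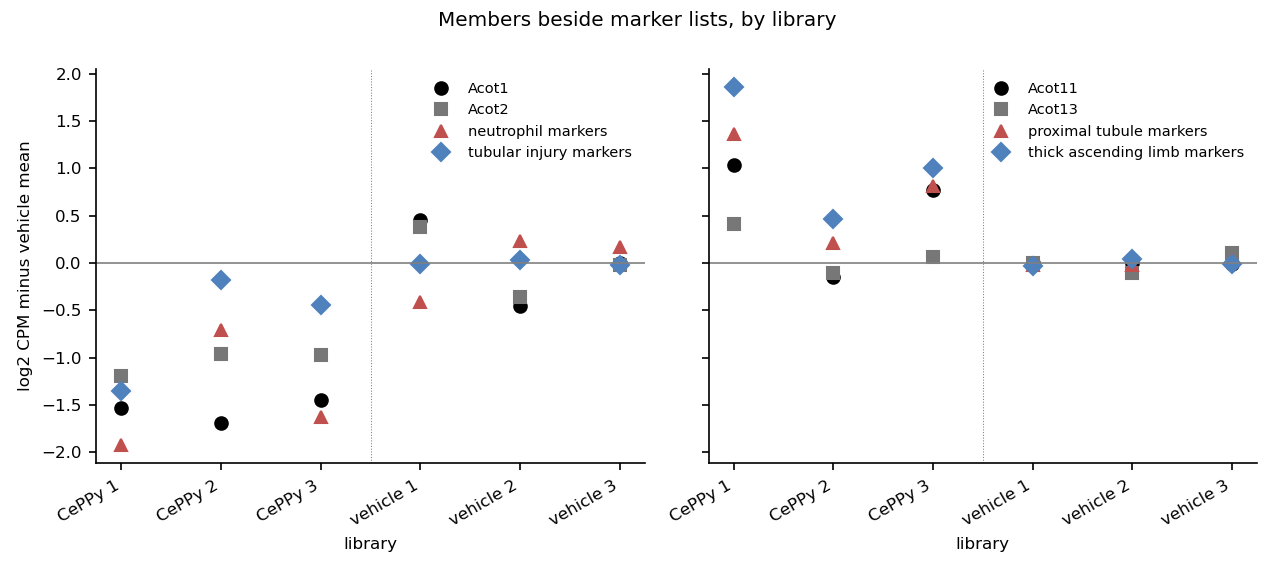
Log2 CPM minus the vehicle mean in each library for Acot1 and Acot2 beside neutrophil and tubular injury markers (left) and for Acot11 and Acot13 beside proximal tubule and thick ascending limb markers (right), with CePPy libraries left of the dotted line; marker values are means over each list. Acot1 lies between -1.69 and -1.45 in all 3 CePPy libraries, and Acot11 is at 1.04, -0.14 and 0.77.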

How the data were processed

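The authors deposited whole-number read counts per gene in 1 table for 6 libraries, with no normalization, and columns were matched to samples through the labels. TRIzol was used for extraction and 2 µg of total RNA entered a Yeasen mRNA library kit, per the labels' protocols. TopHat2, Cufflinks, DESeq and the build GRCm38 are named, with no versions of the tools, in the submitters' processing notes. The sources used here do not give the counting program, its use of strand and of reads with several places, or the annotation release.

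Genes were filtered with filterByExpr and scaled by TMM in edgeR 4.0.16 (R 4.3.3), and CePPy was compared with vehicle by the quasi-likelihood test with 4 residual degrees of freedom. Benjamini-Hochberg adjustment ran over 15416 genes and calls were made under 0.05. A log2 fold change is that of CePPy over vehicle. Its SE was derived as its absolute value divided by the square root of the F statistic of the quasi-likelihood test. Log2 CPM used a prior count of 2. Levels per length used the exonic length of GENCODE M21, and sequences were aligned with Biopython 1.88. The fits were tested on simulated data. Alternatives were RLE scaling, no filter, DESeq2 1.42.0, limma-voom (limma 3.58.1), the replicate block, each library left out and summed copies.

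The members, gene lists and tests were chosen with earlier results of these data known. Text names all members, up to 4 genes of each list by lowest p, and the 5 genes nearest in pattern to the member with the largest change of at least 1 CPM. Riox1, Dnal1, Fam151a, Snx21, 4732463B04Rik, Gm49366 and Acot6 were named for their position.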

Additional observations from a re-analysis of the deposited data

How the results depend on the processing

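Acot1 and Acot2 were lower in CePPy under all alternatives run for each (12 and 11), with log2 fold changes from -1.80 to -0.71 for Acot1, the value nearest to 0 being that of Acot1 to Acot6 summed, and from -1.23 to -0.86 for Acot2. Acot3, Acot7, Acot8, Acot9 and Acot11 kept their direction too. The sign turned for Acot4 under limma-voom (-0.017) and the replicate block (-0.017), and with a library left out, where values ran from -0.22 to 0.12. With a library left out Acot12 ran from -0.086 to 0.14, Acot13 from -0.016 to 0.25 and Acot10 from -0.29 to 0.095.

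Counts of calls depended on the tool. Without the low-count filter edgeR called 2 members lower, and 26 genes higher and 37 lower. That fit ran on all genes with a count above 0, and 4988 of the 25031 genes had none. DESeq2 called 2 members lower, 512 genes higher (3.40%) and 481 lower (3.20%), and 11 genes of the pathway lists higher and 4 lower. With a library left out, members called ran from 0 to 1 higher and 0 to 2 lower, genes from 0 to 467 higher and 0 to 344 lower, and list genes from 0 to 16 higher and 0 to 1 lower, each highest without CePPy 2. The fit without CePPy 2 called 2.98% of its 15697 genes higher and 2.19% lower. The replicate block called 0 genes lower in place of 1. Deviations from the group means correlated at -0.15, 0.10 and -0.02 between libraries of the same number 1, 2 and 3. Between libraries of unlike numbers they correlated at -0.15 to 0.18. With 3 libraries per group these values cannot settle whether the replicate numbers pair the libraries. The causes were not tested. An exact permutation test of 3 against 3 libraries cannot go below a two-sided p of 0.1, and Acot5 and Acot10, under 1 CPM, are limited by depth.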
